A study of Mus musculus with 12 samples.

Results

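The transcripts of 70 genes encoding ubiquitin conjugating and deubiquitinating enzymes were described in the mouse striatum, the input nucleus of the basal ganglia. The members were all genes on the array whose symbol begins with Ube2, is Uba and a single digit, or begins with Usp and a digit, with Otub1, Uchl1 and Uchl5 added and Usp18 left out. Each gene was represented by 1 probe set, the one with the highest mean over the 12 arrays. The 70 members stood among 12393 genes with a single symbol, and 60 of the 70 passed the filter on low values that left 8253 genes for testing. Ube2l3 and Uchl3, which were read only by probe sets with several gene symbols, were left out.

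The 12 C57Bl/6 mice formed 4 groups of 3, with 1 array per mouse. They were TIF-IA D1RCre mutants at 13 weeks of age, controls at 13 weeks, mutants of the same kind at 9 weeks, and controls at 9 weeks. In the mutants, Cre recombinase driven by the gene of the D1 dopamine receptor acts on TIF-IA, an initiation factor of RNA polymerase I that is encoded by Rrn3. Such a Cre acts in the striatal projection neurons that carry the D1 receptor and in other cells that express this gene, while the labels describe the material as striatum and name medium spiny neurons as the cell type. The labels do not say which alleles the controls carry. The series text mentions 5 arrays per condition in one place and 3 mice in another, and the 12 arrays analysed were 3 per group. Rrn3, the targeted gene, had log2 values of 7.72, 7.58 and 7.18 in mutants at 13 weeks, against 7.96, 7.54 and 8.04 in controls, and of 6.90, 6.96 and 6.91 in mutants at 9 weeks, against 8.0, 7.97 and 8.20 in controls. It was lower in mutants by 1.13 ± 0.18 (SE) at 9 weeks with adjusted p = 0.00747, and the difference at 13 weeks was -0.35 with adjusted p = 0.128.

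Ubiquitin is a small protein that is joined to other proteins in a relay. An activating enzyme (E1) charges it, a conjugating enzyme (E2) receives it, and a ligase (E3) directs it to a substrate, which may then be degraded by the proteasome or change its location or partners. Deubiquitinases cut it off again, and relatives of these enzymes handle the ubiquitin-like proteins NEDD8, SUMO and ISG15. Neurons depend on this system for protein turnover at synapses and along axons, and Uchl1 is among the proteins by which neurons are recognised.

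The tissue itself differed strongly between genotypes at 13 weeks. In controls of both ages 14 of 14 measured medium spiny neuron markers lay above the array's 40th percentile in all 3 mice, and in mutants of both ages 13 did and 1 did in none. The mean log2 value over these markers was 8.61 to 9.33 in mutants at 13 weeks, against 10.9 to 11.4 in controls, and 13 of the 14 fell with a median difference of -2.32. Of 10 astrocyte markers 9 rose (median 2.48), as did 12 of 12 microglial markers (2.70), 8 of 8 interferon-stimulated genes (6.68), 5 of 5 tested proliferation genes (2.19) and 6 of 7 endothelial and mural markers (1.1). In controls at 13 weeks, 6 of the 8 interferon-stimulated and 5 of 10 measured proliferation genes lay above the 40th percentile in no mouse. The same held for 5 of the 8 interferon-stimulated genes in each group at 9 weeks. Genes low in all other groups passed the filter only through the mutants at 13 weeks, so the counts and medians of these lists are a description. At 9 weeks 4 of the 14 medium spiny neuron markers fell (median -0.58) and 1 of 5 proliferation genes rose, with median differences of 0.30 for astrocyte, 0.26 for microglial, 0.07 for interferon-stimulated and -0.01 for endothelial and mural genes. Other lists had few calls at 13 weeks. Of 7 oligodendrocyte markers 1 rose (median 0.14), and of 7 tested interneuron markers 1 rose and 1 fell (-0.14). Of 6 tested thalamic or pallidal markers 1 rose and 1 fell (-0.93). The mean over 8 thalamic or pallidal markers was 4.76 to 5.77 in controls at 13 weeks (median 4.77) and 4.28 to 5.64 in mutants at 9 weeks (median 4.30). In each of these groups 1 mouse stood above its mates, and the cause was not tested. In bulk tissue, fewer cells of a type and less RNA per cell cannot be told apart. The mean over 8 interferon-stimulated genes was 8.89 to 9.81 in mutants at 13 weeks, against 3.06 to 3.23 in controls, that over 12 microglial markers 11.52 to 12.03, against 8.24 to 8.68, and that over 10 astrocyte markers 11.4 to 11.7, against 7.93 to 8.22. The part of these shifts in the member differences was not tested.

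One array stood apart. In control mouse 3 at 13 weeks, 17 of the 60 tested members lay more than 1 log2 unit from the mean of the other controls of that age, 2 above and 15 below, against 0 to 8 members on each of the other arrays. Over all 8253 genes, 1701 (20.6%) lay that far away on this array and 32 to 412 on each of the others. Counts at 13 weeks are therefore also given without this mouse, and so are the differences of described members that moved most. By Xist and Eif2s3y, this mouse was the only female among controls at 13 weeks, whereas all 3 mutants at 13 weeks were female. Without it, sex and genotype cannot be told apart at that age.

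At 13 weeks 25 of the 60 tested members passed the test, 10 higher and 15 lower in mutants. This is 41.7% of the members, and 45.4% of all 8253 genes passed in the same fit, 23.4% higher and 21.9% lower. The members were thus called about as often as genes in general. The test was limma on log2 values over all 12 arrays, with Benjamini-Hochberg adjustment over all genes and a threshold of 0.05. Their median difference was -0.13 on the log2 scale, against 0.00 over all genes. In 14 members all 3 mutants lay above all 3 controls and in 20 they lay below, where 27.8% and 26.8% of all genes did so. Without control mouse 3, 29 members passed, 9 higher and 20 lower, and 47.9% of all genes, 24.1% higher and 23.7% lower; 22 of the 25 calls were kept in the same direction. With sex as a term in the fit, 15 of the 60 members were higher and 13 lower at 13 weeks, and 24.6% of all genes were higher and 22% lower.

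**Figure D1:**
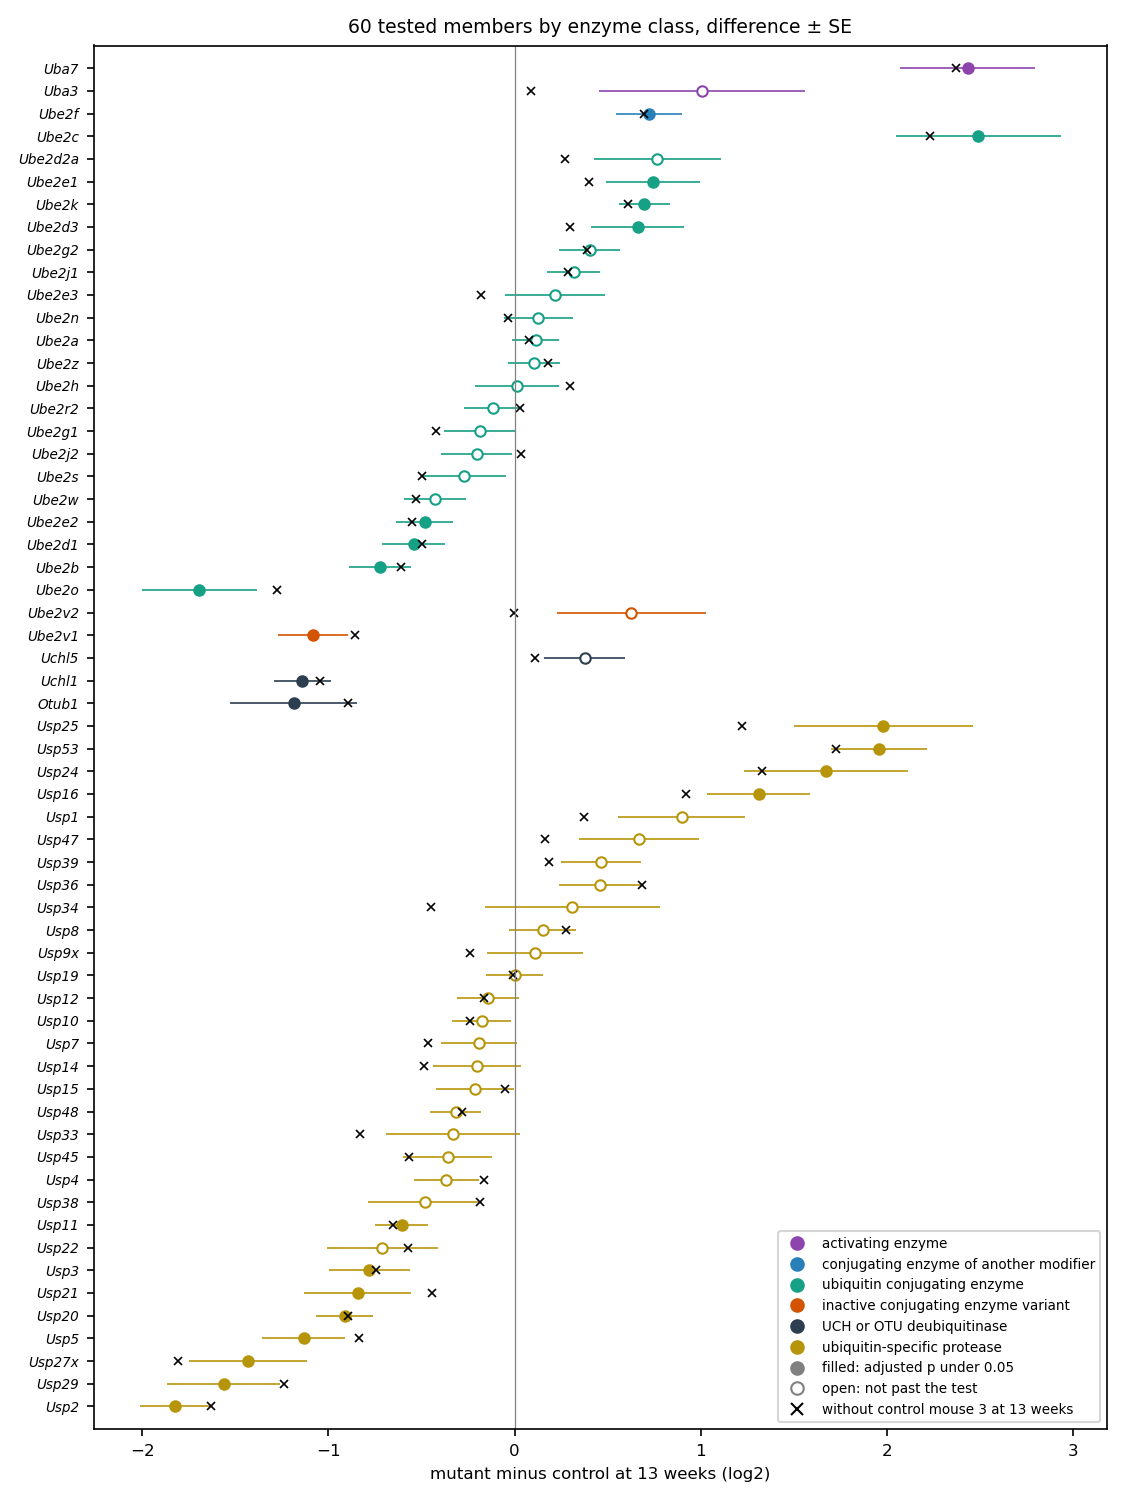
Each point is the mutant minus control difference at 13 weeks (log2, horizontal axis) of 1 of the 60 tested members with its SE from limma, grouped and coloured by enzyme class. Filled points passed the test, and crosses give the difference without control mouse 3. Uba7 and Ube2c lie farthest to the right at 2.43 and 2.49, Usp2 lies farthest to the left at -1.83, and the cross of Uba3 lies near 0 at 0.09.

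Uba7 and Ube2c read higher in mutants at 13 weeks. Uba7 encodes the activating enzyme for ISG15, a ubiquitin-like protein made in response to interferon. Its log2 values were 6.32, 4.82 and 4.51 in mutants at 13 weeks, against 2.64, 3.05 and 2.66 in controls. The groups did not overlap, mouse 1 was the highest mutant, and 0 of the 3 control arrays read Uba7 above their 40th percentile. At 9 weeks all 6 arrays were low, with 3.02, 2.67 and 3.04 in mutants and 3.11, 3.03 and 3.04 in controls. Uba7 thus passed the filter only through the mutants at 13 weeks, and its values, with its place among the 10 members called higher, are a description. With the controls set at the filter level of their arrays, mean 3.55, the mutants at 13 weeks, mean 5.22, were at least 1.66 log2 units higher, or 3.17-fold. The fitted difference of 2.43 (adjusted p = 0.000213), and that of 2.50 for a second probe set, rest on control values below the filter level.

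Partners of Uba7 gave a mixed picture. Ube2l6, the conjugating enzyme for ISG15, was not tested, since 0 of the 12 arrays exceeded the filter. Its values were 3.52, 3.67 and 2.79 in mutants at 13 weeks, against 2.71, 2.81 and 2.85 in controls, so that mutants 1 and 2 lay above all controls and mutant 3 among them. Usp18, the protease that removes ISG15 and no member by the rule, read 9.38, 9.09 and 8.82 in mutants at 13 weeks, against 2.29, 2.30 and 2.28 in controls.

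Ube2c is the conjugating enzyme that works with the anaphase-promoting complex when cells leave mitosis. Its values were 7.10, 6.6 and 6.22 in mutants at 13 weeks, against 4.0, 4.82 and 3.63 in controls. All mutants were above all controls, and Ube2c rose by 2.49 ± 0.44 (SE), or 5.62-fold, with adjusted p = 0.000785. At 9 weeks the values were 4.85, 4.99 and 6.02 in mutants and 3.40, 4.73 and 4.83 in controls, a difference of 0.97 ± 0.44 with adjusted p = 0.236 that was 0.51 without control mouse 1 at 9 weeks and 0.60 without mutant mouse 3 at 9 weeks. Ube2s, which extends chains with the same complex, read 9.20, 9.37 and 9.61 in mutants at 13 weeks, against 9.73, 10.05 and 9.22 in controls, and the groups overlapped; its difference of -0.27 was -0.50 without control mouse 3, and neither passed. Ube2t, the conjugating enzyme of the Fanconi anaemia DNA repair pathway, was not tested, with 4.02, 3.87 and 3.18 in mutants at 13 weeks and 2.87, 2.83 and 2.80 in controls; 2 of the mutant arrays exceeded the filter.

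The promoters of Uba7 and Ube2c are shown because their fitted differences were the highest of the members and these genes belong to pathways with well-described promoter elements, interferon response and cell cycle. Both windows are 300 bases long and span the RefSeq start, mostly before it, on mouse build GRCm38.p6. They are given 5′ to 3′ on the plus strand, which both genes use, at chr9:107975317-107975616 for Uba7 and chr2:164769679-164769978 for Ube2c. Capitals mark matches to AANNGAAA (letters read by interferon regulatory factors) in Uba7, and to CCAAT (the CCAAT box) and TTTGAA (the core of the cell cycle homology region) in Ube2c, on either strand.
Uba7: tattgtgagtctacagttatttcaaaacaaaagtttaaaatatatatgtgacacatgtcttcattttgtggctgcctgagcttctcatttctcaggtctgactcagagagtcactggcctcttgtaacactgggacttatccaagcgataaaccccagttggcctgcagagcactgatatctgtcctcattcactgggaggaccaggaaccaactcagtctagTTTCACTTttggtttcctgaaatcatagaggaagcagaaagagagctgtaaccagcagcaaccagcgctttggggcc
Ube2c: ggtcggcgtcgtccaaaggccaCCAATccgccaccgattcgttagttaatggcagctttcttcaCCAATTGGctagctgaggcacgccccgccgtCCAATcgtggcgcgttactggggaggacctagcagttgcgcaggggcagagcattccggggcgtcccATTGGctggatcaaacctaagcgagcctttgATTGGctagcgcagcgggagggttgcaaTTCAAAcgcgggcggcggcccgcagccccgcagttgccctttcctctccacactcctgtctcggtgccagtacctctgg
The Uba7 window held 1 match to AANNGAAA, on the reverse strand at -27 to -20 from the start, and 0 matches to the longer interferon-stimulated response element; a TTTGAA match at -230 to -225 is left in lower case. The Ube2c window held 6 matches to CCAAT over both strands, of which those at -186 to -182 and at -183 to -179 overlap, and 1 match to TTTGAA at -29 to -24. Of 32851 RefSeq promoter windows of the same length, 23.9% held AANNGAAA, 3.44% the longer element, 37.4% CCAAT and 17.9% TTTGAA, and 3.37% held 3 or more CCAAT. Of the 54 members with a promoter in the table, 11 held AANNGAAA, 16 CCAAT and 9 TTTGAA. These matches describe the letters of the windows and are no evidence of binding.

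Among the hydrolases outside the Usp family, Uchl1 and Otub1 fell at 13 weeks. Uchl1 is the abundant neuronal ubiquitin hydrolase. It read 10.98, 10.99 and 11.32 in mutants at 13 weeks, against 12.11, 12.17 and 12.43 in controls, and fell by 1.14 ± 0.15 (SE; adjusted p = 9.82e-05) with no overlap. At 9 weeks the values were 11.44, 11.67 and 11.72 in mutants and 12.11, 12.16 and 12.13 in controls, again without overlap, but the difference of -0.52 ± 0.15 did not pass (adjusted p = 0.0694). It passed when control mouse 3 at 13 weeks was left out of the fit, which changes the pooled spread only (adjusted p = 0.0195).

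Otub1 is a deubiquitinase that also binds conjugating enzymes and holds them inactive. It read 6.87, 7.11 and 7.16 in mutants at 13 weeks, against 8.09, 7.79 and 8.82 in controls, and fell by 1.19 ± 0.34 (adjusted p = 0.0142). The call was lost without mutant mouse 1 at 13 weeks (adjusted p = 0.0532). At 9 weeks it read 6.59, 6.74 and 6.42 in mutants and 6.48, 6.32 and 5.09 in controls, with a difference of 0.62 that was 0.18 without control mouse 3 at 9 weeks. Uchl5, a deubiquitinase bound to the proteasome, read 9.56, 9.78 and 9.49 in mutants at 13 weeks, against 9.47, 9.53 and 8.70 in controls, and did not pass (0.38 ± 0.22, or 0.11 without control mouse 3).

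The ubiquitin-specific proteases had 31 tested members, of which 4 rose and 8 fell at 13 weeks, with a median difference of -0.20. This is 38.7% of them, against the 45.4% of all genes given above. When control mouse 3 was left out, 5 rose and 11 fell, with a median of -0.24. Usp2, whose transcript follows the circadian clock, fell furthest. Its values were 8.87, 9.02 and 9.28 in mutants at 13 weeks, against 10.71, 10.67 and 11.27 in controls. All mutants lay more than 1 log2 unit below all controls, and Usp2 fell by 1.83 ± 0.19 (SE; adjusted p = 1.29e-05).

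Usp29, an imprinted gene read from the paternal allele, had 5.66, 5.99 and 5.58 in mutants at 13 weeks, against 7.32, 6.64 and 7.96 in controls, and fell by 1.56 ± 0.30 (adjusted p = 0.00132). Usp27x, an X-linked relative of Usp22, had 3.14, 2.64 and 2.90 in mutants at 13 weeks, against 4.74, 4.66 and 3.58 in controls. The lowest control, at 3.58, was the only female control of that age, and all 3 mutants were female. In each group at 9 weeks the 1 female was also the lowest, at 3.29 among mutants and 2.93 among controls. The fitted fall of Usp27x was 1.43 ± 0.32 (adjusted p = 0.00313), and all 3 mutant values lay below the filter level, as did that of control mouse 3. Usp27x reached the 3 arrays of the filter only with the controls at 13 weeks. Its values, with its place among the members called lower, are therefore a description, and the size of the fall is not read. Usp22 itself, a deubiquitinase of histones in the SAGA complex, was lower by 0.71 ± 0.30 without passing (adjusted p = 0.0715).

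Usp5, which takes apart free ubiquitin chains, had 8.03, 8.02 and 8.35 in mutants at 13 weeks, against 9.01, 8.93 and 9.86 in controls, and fell by 1.13 ± 0.22 (adjusted p = 0.00145). Usp20 had 7.15, 7.12 and 7.60 in mutants at 13 weeks, against 8.14, 8.23 and 8.24 in controls, and fell by 0.91 ± 0.15 (adjusted p = 0.00048). Its close relative Usp33 had 8.93, 9.28 and 9.08 in mutants at 13 weeks, against 10.15, 9.70 and 8.43 in controls. Usp33 did not pass with all arrays (-0.33 ± 0.36) and passed without control mouse 3 (-0.83; adjusted p = 0.0131).

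Smaller falls were those of Usp3 and Usp21, both known to remove ubiquitin from histones, and of Usp11 on chromosome X. Usp3 had 6.64, 6.61 and 6.62 in mutants at 13 weeks, against 7.22, 7.52 and 7.47 in controls, and fell by 0.78 ± 0.22 (adjusted p = 0.0125). Usp11 had 8.97, 8.68 and 9.10 in mutants at 13 weeks, against 9.62, 9.52 and 9.43 in controls, and fell by 0.61 ± 0.14 (adjusted p = 0.00475). Usp21 had 6.41, 6.49 and 6.63 in mutants at 13 weeks, against 6.86, 7.05 and 8.15 in controls; its difference of -0.84 ± 0.29 (adjusted p = 0.0325) was -0.45 without control mouse 3 and no longer passed (adjusted p = 0.0628). The call on Usp21 was also lost without any single mutant of that age.

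The 4 proteases that rose at 13 weeks were Usp25, Usp53, Usp24 and Usp16. Usp53, a protein of tight junctions, had 6.83, 7.26 and 6.18 in mutants at 13 weeks, against 5.03, 5.03 and 4.34 in controls, and rose by 1.96 ± 0.26 (adjusted p = 9.5e-05). Usp25 had 7.41, 7.71 and 7.26 in mutants at 13 weeks, against 6.24, 6.24 and 3.96 in controls, and rose by 1.98 ± 0.48 (adjusted p = 0.00556). Control mouse 3 was far below its mates for Usp25, and without it the rise was 1.22 (adjusted p = 0.000495).

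Usp24 had 7.36, 7.67 and 6.27 in mutants at 13 weeks, against 6.21, 5.33 and 4.75 in controls, and rose by 1.67 ± 0.44 (adjusted p = 0.00883). The lowest mutant and the highest control lay close together. Usp16, a histone deubiquitinase, had 8.40, 8.40 and 7.99 in mutants at 13 weeks, against 7.30, 7.39 and 6.17 in controls, and rose by 1.31 ± 0.28 (adjusted p = 0.00228), or 0.92 without control mouse 3.

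**Figure D2:**
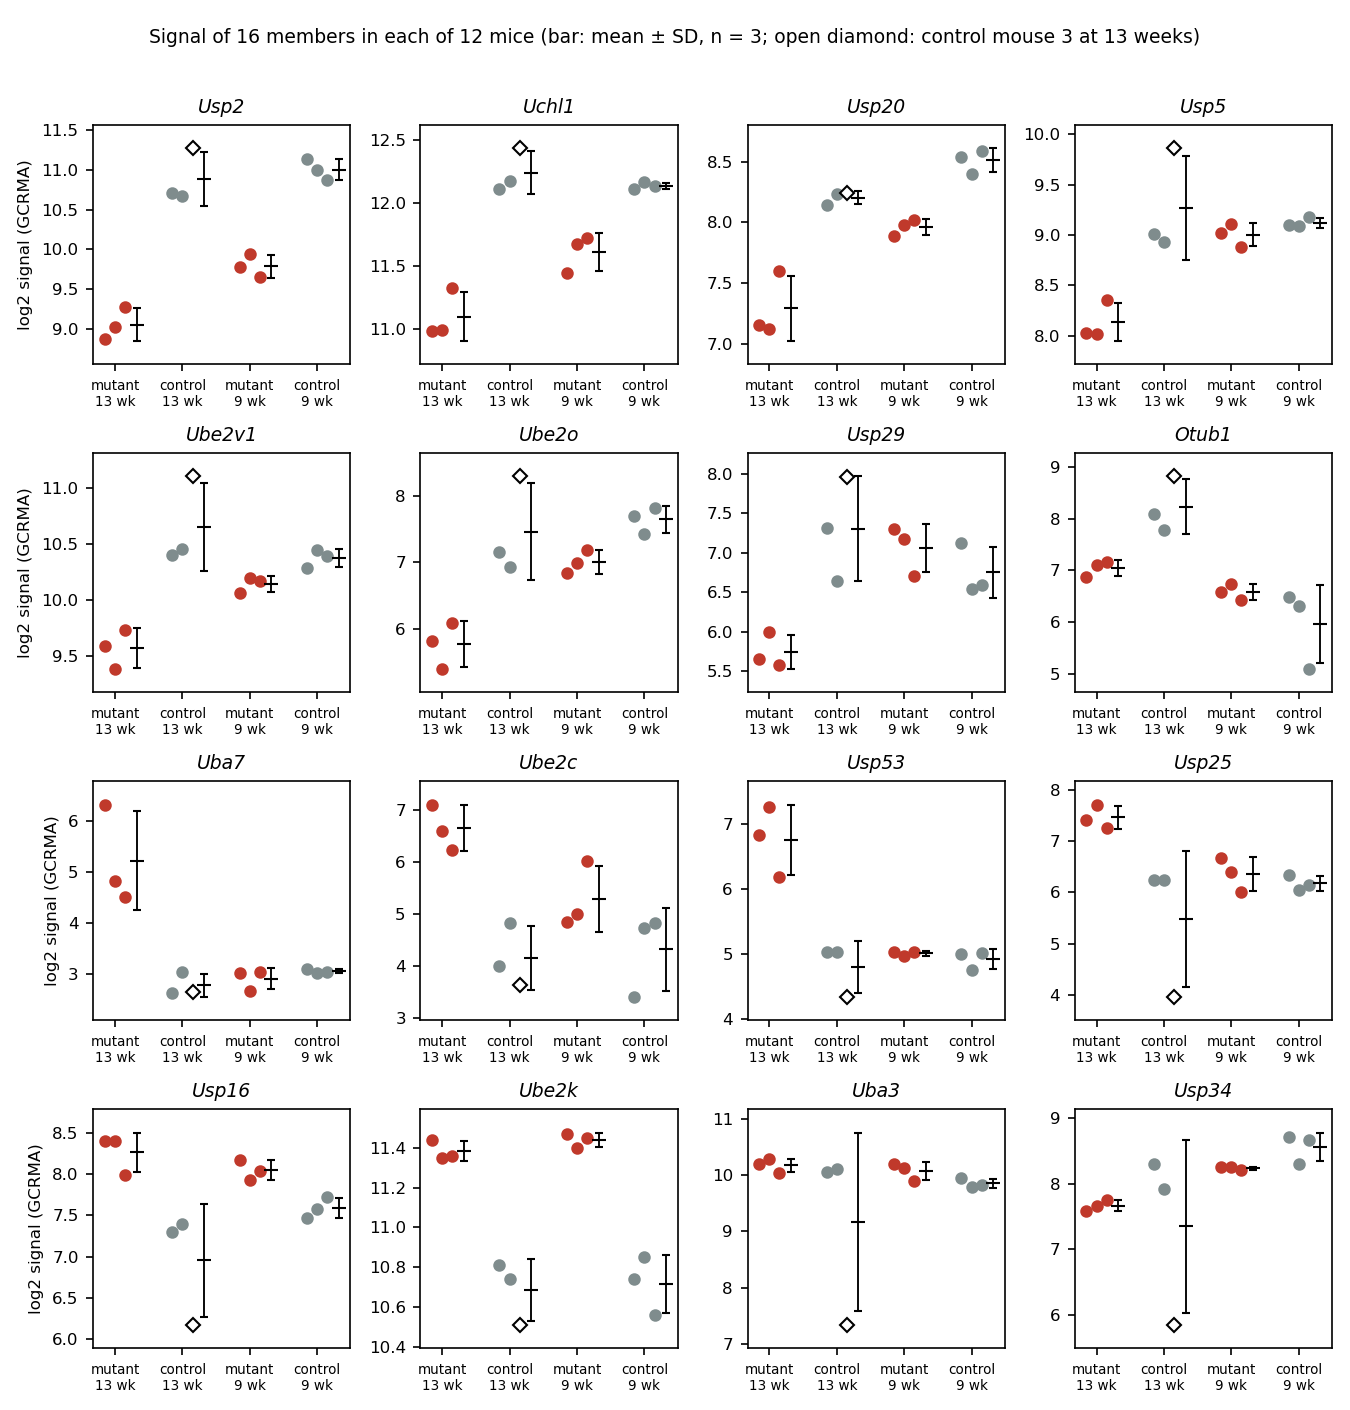
Log2 signal (vertical axis, its own range in each panel) of 16 members in each of the 12 mice, with mutants left of controls at 13 and at 9 weeks; bars give mean ± SD (n = 3) and the open diamond is control mouse 3 at 13 weeks. Usp2 is low in mutants at both ages, Uba7 is raised in the 3 mutants at 13 weeks alone among the 12 mice, and in Uba3 and Usp34 the diamond lies far below the other controls.

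Conjugating enzymes and their inactive variants had 24 tested members at 13 weeks, with 5 rises, 5 falls and a median difference of 0.11. This is 41.7% of them, against 45.4% of all genes. There were 3 rises and 7 falls without control mouse 3, with a median of 0.03. Ube2o, a large conjugating enzyme that also acts as a ligase, had 5.82, 5.39 and 6.08 in mutants at 13 weeks, against 7.16, 6.92 and 8.29 in controls, and fell by 1.69 ± 0.31 (adjusted p = 0.000953). Ube2v1, an inactive variant that pairs with Ube2n, had 9.59, 9.38 and 9.73 in mutants at 13 weeks, against 10.40, 10.45 and 11.10 in controls. It fell by 1.08 ± 0.19 (adjusted p = 0.000642), without overlap.

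The partner Ube2n did not pass, with 9.76, 9.71 and 9.52 in mutants at 13 weeks, against 9.85, 9.55 and 9.21 in controls (0.13, or -0.04 without control mouse 3). The second variant, Ube2v2, had 10.23, 10.25 and 10.13 in mutants at 13 weeks, against 10.32, 10.09 and 8.32 in controls. Its difference of 0.63 ± 0.40 was -0.00 without control mouse 3 and 1.00 without control mouse 1.

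The remaining falls among conjugating enzymes were smaller. Ube2b, a homolog of yeast Rad6, had 10.41, 10.43 and 10.45 in mutants at 13 weeks, against 11.11, 10.97 and 11.38 in controls, and fell by 0.72 ± 0.17 (adjusted p = 0.00411). Its X-linked relative Ube2a read 10.15, 10.26 and 10.35 in mutants at 13 weeks, against 10.15, 10.20 and 10.07 in controls (0.11 ± 0.13). Ube2d1 fell by 0.54 ± 0.17 (adjusted p = 0.0221) and Ube2e2 by 0.48 ± 0.15 (adjusted p = 0.0225); both belong to families that serve many ligases. Ube2d1 lost its call without control mouse 1, mutant mouse 1 or mutant mouse 2 of that age, and Ube2e2 without control mouse 1, mutant mouse 1 or mutant mouse 3.

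Among the rises, Ube2k, a conjugating enzyme that binds huntingtin, had 11.44, 11.35 and 11.36 in mutants at 13 weeks, against 10.81, 10.74 and 10.51 in controls, and rose by 0.70 ± 0.14 (adjusted p = 0.00148). Another probe set of Ube2k fell by 1.13, and the mean of its probe sets gave -0.15, so the direction depends on the probe set. Ube2f, which carries NEDD8, had 9.83, 9.50 and 9.18 in mutants at 13 weeks, against 8.81, 8.81 and 8.72 in controls, and rose by 0.72 ± 0.18 (adjusted p = 0.00582). Uba3, the catalytic subunit of the NEDD8 activating enzyme, read 10.20, 10.28 and 10.04 in mutants at 13 weeks, against 10.06, 10.11 and 7.33 in controls. Uba3 did not pass (1.01 ± 0.55), and without control mouse 3 its difference was 0.09.

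Ube2e1 and Ube2d3 passed with all arrays and did not pass without control mouse 3. Ube2e1 had 11.43, 11.60 and 11.32 in mutants at 13 weeks, against 11.19, 10.91 and 10.02 in controls, a difference of 0.74 ± 0.25 (adjusted p = 0.0303) that became 0.40 (adjusted p = 0.05) without that mouse. Ube2e1 also lost its call without mutant mouse 1 or mutant mouse 2 of that age. Ube2d3 had 11.53, 11.61 and 11.55 in mutants at 13 weeks, against 11.34, 11.19 and 10.18 in controls, a difference of 0.66 ± 0.25 (adjusted p = 0.0489) that became 0.30 (adjusted p = 0.079). The call on Ube2d3 was lost in 10 of the 12 fits that left out 1 array. Ube2d2a differed by 0.77 ± 0.34 without passing, and by 0.27 without control mouse 3.

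Usp14, Usp7 and Usp9x did not pass with all arrays. Usp14, a deubiquitinase bound to the proteasome, had 9.23, 9.26 and 9.37 in mutants at 13 weeks, against 9.98, 9.57 and 8.92 in controls. Usp7, which acts on Mdm2 and p53, had 9.53, 9.4 and 9.52 in mutants at 13 weeks, against 9.95, 9.95 and 9.12 in controls. In both genes control mouse 3 lay below all mutants and the other controls lay above them. Both passed without that mouse, with differences of -0.49 for Usp14 and -0.47 for Usp7. Usp9x read 7.51, 7.74 and 7.55 in mutants at 13 weeks, against 7.98, 7.70 and 6.79 in controls, with a difference of 0.11 ± 0.26 that was -0.24 without that mouse; neither passed.

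Without control mouse 3, Ube2g1, Ube2w, Usp34 and Usp36 passed as well at 13 weeks, beside Usp7, Usp14 and Usp33. Usp34 changed its sign. It had 7.58, 7.66 and 7.75 in mutants at 13 weeks, against 8.30, 7.92 and 5.84 in controls, and its difference of 0.31 ± 0.47 became -0.45 (adjusted p = 0.0369). Usp36, a nucleolar deubiquitinase, had 6.77, 6.29 and 6.30 in mutants at 13 weeks, against 5.63, 5.91 and 6.44 in controls, with differences of 0.46 with and 0.68 without that mouse.

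The 35 tested members that did not pass at 13 weeks had differences between -0.71 (Usp22) and 1.01 (Uba3). Usp1, which acts on the Fanconi anaemia pathway and on PCNA, came closest to the threshold, with 9.57, 9.43 and 9.4 in mutants at 13 weeks, against 9.28, 8.91 and 7.52 in controls. Its difference of 0.90 ± 0.34 (adjusted p = 0.0508) was 0.37 without control mouse 3. Ube2e3, Ube2j2, Ube2n, Ube2r2, Ube2v2 and Usp9x changed sign without that mouse and passed in neither fit.

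The 10 members that were not tested were Ube2d2b, Ube2l6, Ube2t, Usp13, Usp17la, Usp26, Usp42, Usp43, Usp49 and Usp9y. Apart from Ube2t, 0 of their values on the 12 arrays exceeded the filter level of 3.51 to 3.81, which is a limit of the probe sets and does not show that the transcripts were absent.

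At 9 weeks 3 of the 60 tested members passed, 1 higher and 2 lower in mutants. This is 5% of members, and 5% of all genes passed, 2.02% higher and 2.98% lower. Usp2 had 9.78, 9.94 and 9.65 in mutants at 9 weeks, against 11.14, 11 and 10.87 in controls, and fell by 1.21 ± 0.19 (SE; 2.32-fold; adjusted p = 0.0069). Of the 3 calls, the one on Usp2 alone held in all 12 fits that left out 1 array, with a highest adjusted p of 0.042.

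Usp48 had 8.02, 8.17 and 8.13 in mutants at 9 weeks, against 8.84, 8.62 and 8.68 in controls, and fell by 0.61 ± 0.14 (adjusted p = 0.0302). Ube2k had 11.47, 11.40 and 11.45 in mutants at 9 weeks, against 10.74, 10.85 and 10.56 in controls, and rose by 0.72 ± 0.14 (adjusted p = 0.0179). Both were free of overlap. Fitted by itself, the other tested probe set of Usp48 differed by -0.04 at 9 weeks (adjusted p = 0.94). The other tested probe set of Ube2k differed by -0.36 (adjusted p = 0.472), so neither call was repeated by it. The call on Usp48 was lost without any single mouse of that age, and the call on Ube2k without control mouse 1, control mouse 3, mutant mouse 1 or mutant mouse 2 of that age.

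More members were separated at 9 weeks than passed. In 10 members all 3 mutants lay above all 3 controls and in 14 below, where 15% and 20.6% of all genes did so. When control mouse 3 at 13 weeks was left out of the fit, 11 members passed at 9 weeks, 3 higher and 8 lower, and 16.5% of all genes, 6.39% higher and 10.1% lower. The 3 calls were kept, and the 8 gained were Ube2g1, Ube2g2, Ube2o, Uchl1, Uchl5, Usp16, Usp20 and Usp47. The differences at 9 weeks do not depend on that mouse; the pooled spread in the test does.

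Whether the genotype difference changed between ages was tested as an interaction, the difference at 13 weeks minus the difference at 9 weeks. It passed for 9 of the 60 members, 3 upwards and 6 downwards, or 15%, and for 18.4% of all genes, 12.1% upwards and 6.37% downwards. The upward changes were those of Uba7, Usp53 and Ube2g2. That of Uba7 (2.58; adjusted p = 0.00463) rests on 3 of 4 groups with values below the filter level on all their arrays, so its size is not read. Usp53 changed by 1.87 ± 0.37 (adjusted p = 0.00445) and Ube2g2 by 1.02 ± 0.23 (adjusted p = 0.01). Ube2g2, a conjugating enzyme of the degradation pathway at the endoplasmic reticulum, had 8.99, 8.67 and 8.48 in mutants at 13 weeks, against 8.36, 8.29 and 8.28 in controls, and 8.10, 8.14 and 7.89 in mutants at 9 weeks, against 8.59, 8.88 and 8.52 in controls. Its mutants were thus above all controls at 13 weeks and below all controls at 9 weeks, although neither difference passed by itself (0.40 and -0.62). The second tested probe set of Ube2g2, fitted by itself, did not pass in the interaction (0.69 ± 0.37; adjusted p = 0.233). There the genotypes overlapped at both ages, with differences of 0.44 at 13 weeks and -0.25 at 9 weeks.

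The downward changes were those of Usp29, Otub1, Usp27x, Usp5, Ube2v1 and Ube2w. Usp29 changed by -1.87 ± 0.43 (adjusted p = 0.0101), with 7.30, 7.17 and 6.71 in mutants at 9 weeks and 7.12, 6.54 and 6.59 in controls. Otub1 changed by -1.81 ± 0.48 (adjusted p = 0.0221), Usp27x by -1.46 ± 0.45 (adjusted p = 0.041), Usp5 by -1.01 ± 0.31 (adjusted p = 0.0431) and Ube2v1 by -0.85 ± 0.27 (adjusted p = 0.0442). Usp27x exceeded the filter level on 2 control and 0 mutant arrays at 13 weeks, and on 1 array of each genotype at 9 weeks. It reached the 3 arrays of the filter only with the controls at 13 weeks, so its size is not read. Ube2w, which joins ubiquitin to protein N termini, changed by -0.80 ± 0.23 (adjusted p = 0.0339), with differences of -0.43 at 13 weeks and 0.37 at 9 weeks that did not pass. The second tested probe set of Ube2w, fitted by itself, did not repeat this change (0.08 ± 0.25; adjusted p = 0.853). Its differences were 0.20 at 13 weeks and 0.12 at 9 weeks.

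With the probe sets used for the genes, the interaction calls on Usp53, Ube2g2 and Usp29 held in all 12 fits that left out 1 array. That on Uba7 held as well, but Uba7 passed the filter only through the mutants at 13 weeks, so this is a description and no support. Otub1 lost its call without mutant mouse 2 at 9 weeks or mutant mouse 1 at 13 weeks, and Ube2v1, Ube2w, Usp27x and Usp5 passed in 2 to 4 of the 12 fits. Without control mouse 3 at 13 weeks the 9 calls were kept, and 15 members passed, 6 upwards and 9 downwards, with 23.6% of all genes, 14.6% upwards and 9.05% downwards. For Usp2, whose difference was larger at 13 weeks than at 9 weeks, the change of -0.61 ± 0.27 did not pass (adjusted p = 0.135), nor did that of Uchl1 (-0.62 ± 0.22; adjusted p = 0.0688).

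**Figure D3:**
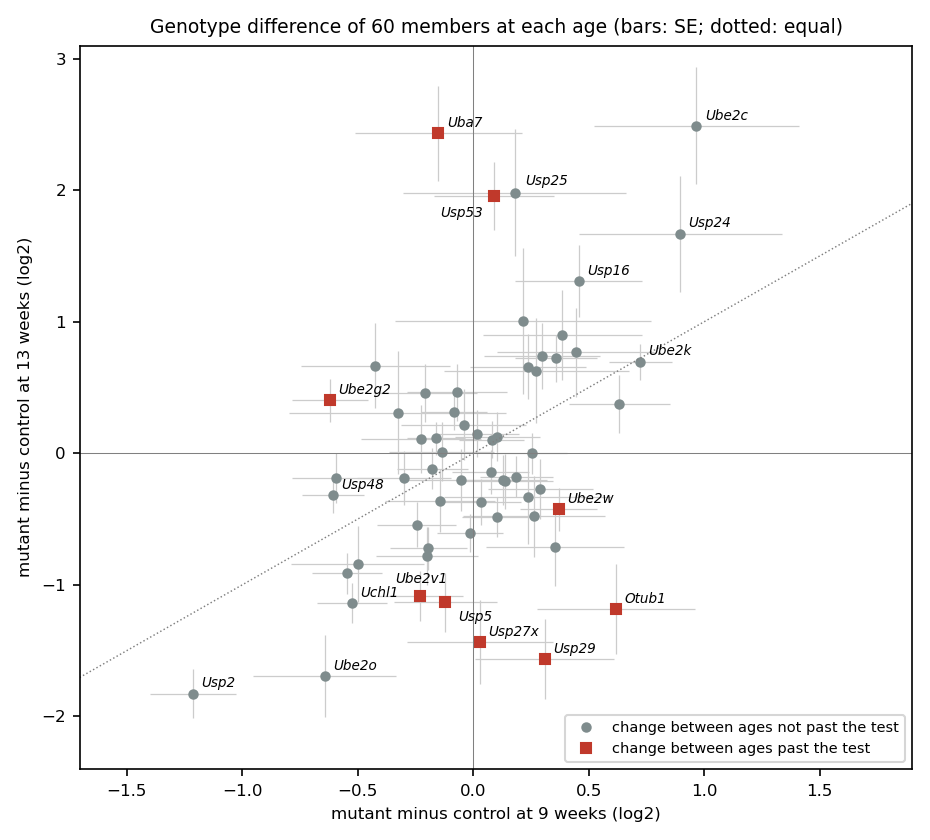
The genotype difference of each of the 60 tested members at 13 weeks (vertical axis, log2) is plotted against that at 9 weeks (horizontal axis, log2), with SE bars; on the dotted line they are equal. Red squares are the 9 members whose interaction passed. Usp2 lies at the lower left, at -1.83 and -1.21, and Uba7 lies high at 2.43 with a difference of -0.15 at 9 weeks.

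The genotype differences at the 2 ages come from different mice. The sign of the difference was the same at both ages in 34 of 60 members (56.7%) and in 68.5% of all genes. Pearson's r between the differences at the 2 ages was 0.47 over the 60 members and 0.46 over all genes, as a description across genes that share the same arrays. The median absolute difference was 0.51 at 13 weeks and 0.24 at 9 weeks in members, and 0.53 and 0.25 over all genes.

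Age was compared within each genotype, 13 weeks minus 9 weeks. In mutants 17 of 60 members passed, 5 higher and 12 lower at 13 weeks, or 28.3%, and 32.7% of all genes passed, 16.1% higher and 16.6% lower. Without control mouse 3 at 13 weeks, 25 members passed, 7 higher and 18 lower, and 46.5% of all genes, 20.6% higher and 25.8% lower. The 5 smallest p-values belonged to Usp53 (1.74 ± 0.26; adjusted p = 0.000335), Uba7 (2.31; adjusted p = 0.000481, with all mutants at 9 weeks below the filter level), Usp11 (-0.68 ± 0.14; adjusted p = 0.00336), Usp20 (-0.67 ± 0.15; adjusted p = 0.00524) and Usp29 (-1.32 ± 0.30; adjusted p = 0.00557). All 3 mutants at 13 weeks but 1 of 3 at 9 weeks were female, and with sex as a term 5 of the 60 members were higher and 9 lower, and 15.4% of all genes were higher and 15% lower.

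In controls 2 of 60 members passed with age, 1 higher and 1 lower at 13 weeks, or 3.33%, against 0.145% of all genes, 0.0848% higher and 0.0606% lower. Both also passed without control mouse 3 at 13 weeks, where 0.303% of all genes did, 0.121% higher and 0.182% lower. Otub1 rose by 2.27 ± 0.34 (adjusted p = 0.0326), with values of 7.79 to 8.82 at 13 weeks and 5.09 to 6.48 at 9 weeks. Usp48 fell by 0.87 ± 0.14 (adjusted p = 0.0327), with 7.83, 7.79 and 7.91 at 13 weeks and 8.84, 8.62 and 8.68 at 9 weeks. Each call held in 2 of the 12 fits that left out 1 array, with adjusted p up to 0.119 for Otub1 and 0.158 for Usp48. Neither was repeated by the other tested probe set of the gene, fitted by itself. That of Otub1 differed by 1.40 ± 0.58 (adjusted p = 0.239), or by 0.51 without control mouse 3 at 13 weeks. That of Usp48 differed by -0.21 ± 0.17 (adjusted p = 0.54). The comparisons with age share their control arrays with the comparisons of genotype, so the fall of Otub1 in mutants at 13 weeks and its rise with age in controls rest on the same 3 controls at 13 weeks.

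Probe sets of 1 gene can read different transcript ends or isoforms, and 30 of the 60 tested members had more than 1 probe set above the filter. Each probe set was therefore also fitted by itself, among 13087 tested. Of the 107 member probe sets tested, 17 were higher and 23 lower at 13 weeks, where 42.6% of all probe sets passed. At 9 weeks 4 were higher and 3 lower, where 3.6% of all probe sets passed. The 2 probe sets of Usp2 agreed, with differences of -1.83 and -1.45 at 13 weeks and of -1.21 and -1.41 at 9 weeks. For Otub1 the second probe set gave -1.58 ± 0.58 at 13 weeks (adjusted p = 0.0446), with control mouse 3 at 9.14 and the other controls at 6.49 and 6.47. Leaving that mouse out gave -0.69 with adjusted p = 0.0639. The interaction of this probe set did not pass (-1.62 ± 0.81; adjusted p = 0.21) and was -0.73 without that mouse.

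With all 12 arrays, Ube2k was the 1 member with probe sets called in both directions at 13 weeks; without control mouse 3, Ube2d3 was another. The second probe set of Ube2k had 5.55, 6.25 and 6.59 in mutants at 13 weeks, against 7.54, 7.26 and 6.97 in controls, and fell by 1.13 ± 0.25 (adjusted p = 0.00384), whereas the probe set used for the gene rose by 0.70. In Ube2v2 the probe sets differed by 0.63 and -0.72, and neither passed; without control mouse 3 they differed by -0.00 and -1.18, and the second passed as a fall (adjusted p = 0.000875).

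In Ube2d3 the probe sets fell into separate ranges at 13 weeks. Apart from the one used for the gene (0.66), those with differences of 0.81, 0.82 and 0.85 passed, and those with differences of -0.05, -0.39 and -0.41 did not. The first 3 still rose without control mouse 3, by 0.66, 0.62 and 0.81 in that order. The other 3 then fell, by 0.46 (adjusted p = 0.0177), 0.61 (adjusted p = 0.024) and 0.57 (adjusted p = 0.0112). Ube2a, Usp7 and Usp14 each had another probe set that fell, by 0.64, 1.19 and 0.89 in that order, where the one used did not pass. That of Usp7 read 3.41, 3.40 and 3.26 in mutants at 13 weeks, below the filter levels of their arrays (3.81, 3.80 and 3.72). Without control mouse 3 it fell by 0.85. The second probe set of Ube2j1, a conjugating enzyme of the endoplasmic reticulum, had 8.13, 8.30 and 8.02 in mutants at 13 weeks, against 6.54, 6.54 and 7.93 in controls, and 7.35, 7.43 and 7.56 in mutants at 9 weeks, against 6.22, 5.89 and 5.95 in controls. It rose by 1.15 ± 0.31 at 13 weeks (adjusted p = 0.0104) and by 1.43 ± 0.31 at 9 weeks (adjusted p = 0.0332), while the one used for the gene differed by 0.32 and -0.08.

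**Figure D4:**
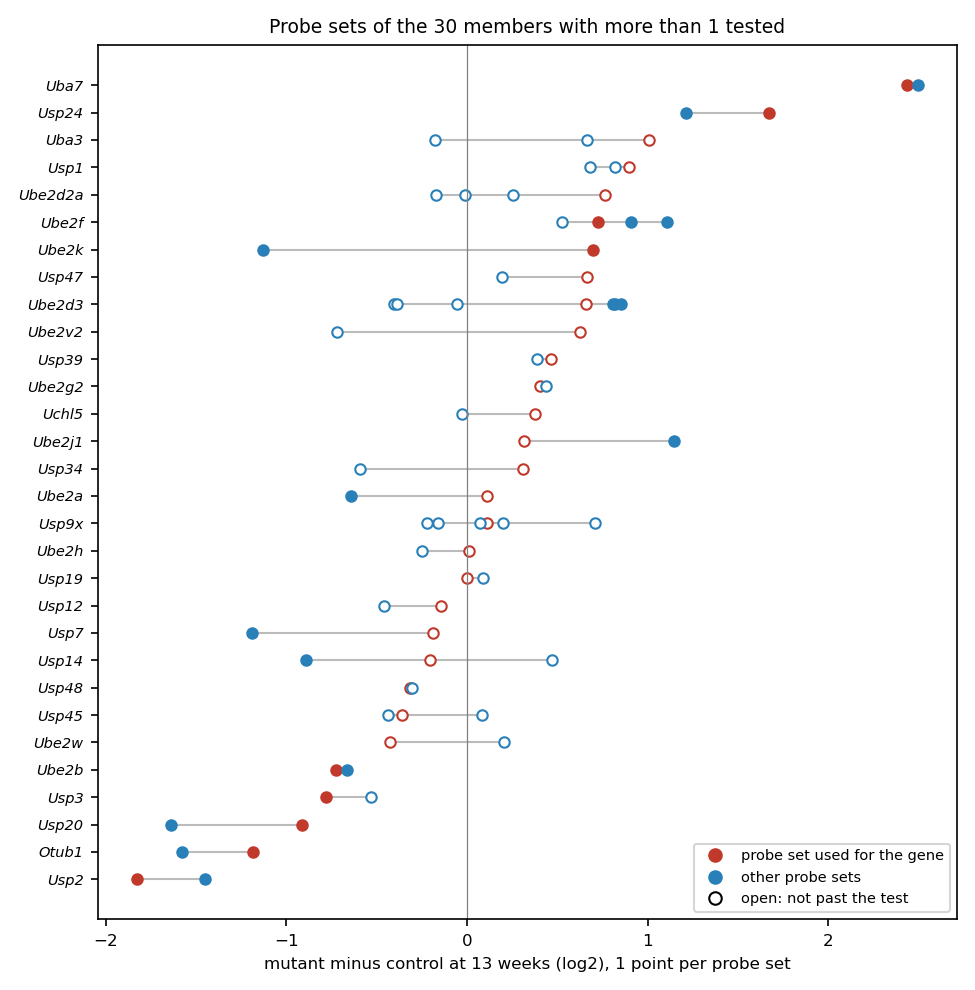
Each point is the mutant minus control difference at 13 weeks (log2, horizontal axis) of 1 probe set, for the 30 members with more than 1 probe set tested; filled points passed the test and red marks the probe set used for the gene. The filled points of Ube2k lie on opposite sides of 0, at 0.70 and -1.13, while those of Uba7 lie together at 2.43 and 2.50.

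The rest of the pathway was described from lists of ubiquitin and its relatives, other E1 and E2 partners, other deubiquitinases with SUMO and NEDD8 proteases, ligases, and ubiquitin receptors. The shares called at 13 weeks below stand against 45.4% of all genes, or 47.9% without control mouse 3. Of 87 tested ligases 9 rose and 26 fell at 13 weeks (40.2%), with a median difference of -0.21. The risers included Trim30a (5.08; adjusted p = 9.02e-09), Trim21 (3.80; adjusted p = 1.34e-08) and Trim25 (3.71; adjusted p = 6.46e-07), of which Trim21 and Trim25 are known as interferon-induced ligases of innate immunity. Trim25 had 8.64, 8.12 and 7.79 in mutants at 13 weeks, against 4.56, 4.81 and 4.05 in controls. Btrc, the substrate receptor of an SCF ligase, fell by 1.24 (adjusted p = 0.000177), with 7.78, 7.64 and 8.34 in mutants at 13 weeks, against 9.25, 9.11 and 9.12 in controls.

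Of 19 other deubiquitinases and SUMO or NEDD8 proteases tested, 1 rose and 4 fell at 13 weeks (26.3%). The 1 riser was the SUMO protease Senp6 (0.67; adjusted p = 0.0342), named after its value was seen. The 4 falls were those of Otub2 (-1.09; adjusted p = 0.000568), Otud7a (-0.98; adjusted p = 0.000818), Stambp (-0.89; adjusted p = 0.00875) and Zranb1 (-0.83; adjusted p = 0.0141). Otub2, a relative of Otub1, had 6.10, 6.18 and 6.22 in mutants at 13 weeks, against 7.23, 7.36 and 7.19 in controls. Among 25 ubiquitin receptors and shuttles 3 rose and 5 fell (32%), among them Tom1 (0.95), Ubxn4 (0.73), Epn1 (-0.98) and Ubqln4 (-0.76). Of 10 other E1 and E2 partners 2 passed (20%). Atg3, the conjugating enzyme of autophagy, rose by 0.58 (adjusted p = 0.00298), and Sae1, a subunit of the SUMO activating enzyme, fell by 0.35 (adjusted p = 0.0465). Of 5 modifiers tested 1 passed (20%), as Ufm1 rose by 0.78 (adjusted p = 0.0215). Without control mouse 3, 8 ligases rose and 33 fell, Senp6 no longer passed (adjusted p = 0.0706), 5 receptors rose and 5 fell, and 2 of the E1 and E2 partners rose and 1 fell.

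At 9 weeks 2 ligases of 87 rose and 3 fell (5.75%, against 5% of all genes), with a median difference of -0.17. When control mouse 3 at 13 weeks was left out of the fit, 4 rose and 12 fell, against 16.5% of all genes. Ube4b, a ligase that extends chains, had 8.32, 8.58 and 8.58 in mutants at 9 weeks, against 9.51, 9.32 and 9.38 in controls, and fell by 0.91 (adjusted p = 0.0128). Herc1 fell by 0.84 (adjusted p = 0.0159), and Cdc20, the activator of the anaphase-promoting complex with which Ube2c works, rose by 1.04 (adjusted p = 0.035). Cdc20 had 6.92, 6.68 and 7.22 in mutants at 9 weeks, against 5.79, 5.79 and 6.11 in controls, and rose by 1.54 at 13 weeks (adjusted p = 0.000323). Cdc20 stands in the proliferation list too, and is the 1 gene of that list counted above as higher at 9 weeks. Elsewhere in the pathway Aktip (0.92), Ufd1 (0.70) and Urm1 (0.68) rose and Tollip fell by 0.54 at 9 weeks.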

How the data were processed

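Total RNA from striatum of 12 mice was measured on Affymetrix arrays, per the labels. The deposited log2 values were made with GCRMA, per the submitters' processing notes, in a version not given in the sources used here, and were used as deposited. They ran from 1.09 to 15.48, with array medians of 5.29 to 5.52; GCRMA compresses low values, so differences against them depend on its background correction. Of 22690 probe sets, 64 array controls, 691 with several symbols and 1555 with none were left out.

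Genes were kept when above their array's 40th percentile, 3.51 to 3.81, in at least 3 arrays. The fit used limma 3.58.1 (R 4.3.3), with lmFit and eBayes over all 12 arrays, 1 coefficient for each group and 8 residual degrees of freedom. Tests were two-sided, with Benjamini-Hochberg adjustment over 8253 genes and a threshold of 0.05. Differences are between group means of log2 values, SEs are those limma estimates, and folds are antilogs of the differences. Nothing states litters or extraction batches, so p-values measure the spread between these samples. The procedure was tested on simulated data.

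The members and lists were chosen with earlier results of these data known. The genes to be named were the members past the test at 9 weeks or in the interaction (at most 8 of these), the 12 largest changes each way at 13 weeks, members changed with age, a fixed panel, and up to 4 genes of each pathway list. Other members were named after their values were seen. Promoter windows came from RefSeq (GRCm38.p6), and motifs were searched on both strands.

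Alternatives were quantile normalization, median centring, no filter or the 60th percentile, averaging the probe sets of each gene, the compared groups alone, array weights, an unmoderated test, a replicate block, sex as a term, the members on X and Y left out, and each array left out in turn. Fitting every probe set by itself was added after the data had been seen.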

Additional observations from a re-analysis of the deposited data

Results flagged for a closer look

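In 9 members the genotype difference changed between ages by the interaction term of limma. The change, as the difference at 13 weeks minus that at 9 weeks, was 2.58 for Uba7, 1.87 for Usp53, 1.02 for Ube2g2, -0.80 for Ube2w, -0.85 for Ube2v1, -1.01 for Usp5, -1.46 for Usp27x, -1.81 for Otub1 and -1.87 for Usp29. Of these, Usp53, Ube2g2 and Usp29 kept the call whichever of the 12 arrays was left out. Uba7 kept it as well, but passed the filter only through the mutants at 13 weeks, so this is no support. The second tested probe sets of Otub1, Ube2g2 and Ube2w, each fitted by itself, did not pass in the interaction. The value for Uba7 rests on 3 groups that lay below the filter level on all their arrays. That for Usp27x rests on values mostly below the filter level, which 2 control and 0 mutant arrays exceeded at 13 weeks, and 1 array of each genotype at 9 weeks.

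Another 3 results came from probe sets that the gene-level comparisons did not use. The second probe set of Ube2j1 rose by 1.43 at 9 weeks (adjusted p = 0.0332), where the one used differed by -0.08. The second probe set of Ube2a had 9.14, 9.23 and 9.23 in mutants at 13 weeks, against 9.92, 9.95 and 9.65 in controls, a difference of -0.64 (adjusted p = 0.00262), where the one used differed by 0.11. The second probe set of Ube2k differed by -1.13 at 13 weeks (adjusted p = 0.00384), where the one used rose by 0.70.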

How the results depend on the processing

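Counts of members past the test are given as higher and lower. Over the fits that left out 1 array they ranged at 13 weeks over 8 to 13 and 11 to 20, at 9 weeks over 0 to 3 and 1 to 8, for the interaction over 3 to 6 and 1 to 9, for age in mutants over 3 to 7 and 6 to 18, and for age in controls over 0 to 1 and 0 to 1. In these fits the shares of all genes moved too. They were 18.6% to 24.3% and 16.5% to 23.7% at 13 weeks, and 0.23% to 6.39% and 0.509% to 10.1% at 9 weeks. For the interaction they were 9.46% to 14.6% and 3.36% to 9.05%, and for age in mutants 12.7% to 20.6% and 10.3% to 25.8%. For age in controls they were at most 0.121% and 0.182%. Array weights gave 23 lower at 13 weeks (29.5% of all genes were lower in that fit), 11 and 9 at 9 weeks (14.3% and 19% of all genes), 8 and 17 for the interaction (21.2% and 19.3%), 11 and 25 for age in mutants (26.4% and 35.1%) and 3 and 4 for age in controls (1.89% and 5.36%). At 9 weeks no filter gave 5 lower, the filter at the 60th percentile 4 lower, the mean of probe sets 1 lower and the fit to the compared groups alone 2 higher and 8 lower, where 1.91%, 4.36% and 2.53% of all genes were lower in the first 3 of these fits and 4.34% higher and 8.42% lower in the last. The filter at the 60th percentile gave 1 higher for the interaction (10.8% of all genes) and 2 higher for age in mutants (14.4%). Median centring and the unmoderated test each gave 3 higher for age in mutants (13.8% and 15.1% of all genes), and sex as a term 5 higher for the interaction (13.2%). For age in controls, the mean of probe sets, the compared groups alone and the replicate block each gave 0 and 0, and the unmoderated test 0 higher. Of all genes 0.187%, 0% and 0.0364% passed in the first 3 of these fits, and 0.0969% were higher in the last. Of single members, Ube2j1 at 9 weeks (0.67) and Ube2k at 13 weeks (-0.15) turned round with the mean of probe sets, and Usp34 at 13 weeks without control mouse 3 (-0.45, with 0.78 at the other end of the fits that left out 1 array); the cause was not tested. Usp9x at 13 weeks, which passed in neither fit, was -0.24 without control mouse 3. No label states that the replicate numbers pair the mice, and the main fit treated them as unpaired. Of 18 correlations between deviations of same-numbered mice, from -0.12 to 0.316, 4 were over 0.1. Differently numbered mice were not compared in this way, so these values cannot exclude a pairing. With 3 arrays per group the number of mice limits the precision, and members near the filter level are read least surely.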
